A study of Mus musculus with 6 samples.

Results

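The 42 genes described here encode RNA polymerase I with its initiation factors, the proteins of the small nucleolar ribonucleoproteins (snoRNPs), abundant nucleolar chaperones, and factors that process and assemble the precursors of the small and large ribosomal subunits. They were chosen by gene symbol, with earlier results of these data known, from the deposited table of gene counts, which held 21017 genes. All 42 had a row and passed the filter on low counts. Total RNA was measured in group 2 innate lymphoid cells (ILC2s), lymphocytes of barrier tissues that make type 2 cytokines without a rearranged antigen receptor. The cells came from lungs of C57BL/6J mice aged 8 weeks that carried an IL-10 reporter allele with green fluorescent protein. All animals had received 3 intranasal doses of recombinant mouse IL-33 (0.5 µg per mouse), and all sorted ILC2s spent 48 h in culture with 3 cytokines (IL-4, IL-7 and IL-2), each at 10 ng/mL. A second sort on the reporter then gave the IL-10-producing cells (3 libraries) and the IL-10-negative cells (3 libraries) from 10 ng of RNA each. The comparison asks how the cells that make IL-10 differ from the cells of the same culture conditions that do not. The labels do not state whether the 3 libraries of a population came from separate animals or cultures, so p-values measure the spread between these libraries only, which may be technical.

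Ribosome production begins in the nucleolus, where RNA polymerase I copies the rDNA repeats into a long precursor RNA. Box C/D snoRNPs guide ribose methylation of this precursor and box H/ACA snoRNPs guide its pseudouridylation, while the small-subunit processome and a separate set of large-subunit factors cut, fold and pack it. In lymphocytes the pathway is known to be induced with growth and division, and Myc is a known activator of many of its genes.

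Library totals ran from 47012941 to 69511433 counts, and single libraries held between 1213 counts (Polr1e) and 67749 counts for one of these genes. Il10, the reporter gene, was at 848 ± 7.78 CPM in IL-10-producing cells and 13.5 ± 0.608 CPM in IL-10-negative cells (SD, n = 3 each), in the direction the labels give. CPM here are counts scaled to a common library size with TMM factors, and n is 3 libraries per population throughout. The ILC2 genes Il1rl1 (3299 CPM in producing and 4069 CPM in negative cells), Il2ra (5835 and 4206 CPM) and Gata3 (708 and 832 CPM) were abundant in both populations. Of the 10 ILC2 genes listed, 3 were called higher and 5 lower. RNA of other blood cells was lower in the producing libraries. All 9 T cell markers tested were called lower, with a summed level of 54.99 to 56.06 CPM in producing and 123.1 to 127.5 CPM in negative libraries. Most of the T cell sum in producing libraries came from Lat (48.4 CPM, against 63.1 CPM in negative cells). All 8 mast cell and basophil markers were called lower as well (11.6 to 13.4 and 65.9 to 70.4 CPM). So were all 3 neutrophil markers tested (1.08 to 1.75 and 33.9 to 37.5 CPM), with most of that sum from Mpo (0.954 and 30.6 CPM). The neutrophil list held 6 genes, but S100a8 and Ly6g did not pass the filter on low counts and Retnlg had no row. Of the other lists, 4 of 5 B cell markers (summed level 15.7 to 17.2 CPM in producing and 16.9 to 17.6 CPM in negative libraries), 3 of 5 macrophage and dendritic cell markers (56.8 to 59.4 and 62.2 to 63.9 CPM) and the 1 epithelial marker tested were called lower. Most of the B cell sum came from Cd79b (15.5 CPM in producing and 14.5 CPM in negative cells, not called), and most of the macrophage and dendritic cell sum from Xcr1 (56.6 and 60.4 CPM). Csf1r and Adgre1 were at 0.217 and 0.193 CPM in producing and 0.887 and 0.656 CPM in negative cells, with log2 fold changes of -2.03 and -1.71. Lyz2 and Flt3 of the same list were not called. Flt3 lay lower (0.389 CPM in producing and 0.674 CPM in negative cells) and Lyz2 higher (0.675 and 0.553 CPM, log2 fold change 0.26). Of the defining T cell genes, Cd8a was at 0.0594 CPM in producing and 15.3 CPM in negative cells, and Cd3e at 1.25 and 8.19 CPM. The part of these cells' RNA in the differences below was not tested. In such bulk libraries, fewer cells of a type and less RNA per cell cannot be told apart.

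The IL-10-producing cells had modestly higher levels of many of these genes, among them the SL1 subunit Taf1d, the snoRNP proteins Gar1, Fbl and Nop58 and the nucleolar proteins Npm1 and Ncl, and a lower level of the RNA polymerase I subunit Polr1a. By edgeR's quasi-likelihood test with Benjamini-Hochberg adjustment over the 16654 genes tested, at an adjusted p under 0.05, 19 of the 42 (45.2%) were called higher and 1 (2.38%) was called lower in producing cells. The background shares in the same comparison were 17.1% called higher and 18.6% called lower, or 35.7% in either direction. Among the 6618 genes within the members' range of 25.6 to 940.4 CPM, 30.2% were called higher and 22.7% lower. The log2 fold change, producing over negative, had a median of 0.08 over the 42 genes and of 0.01 over those 6618 genes. It was above 0 in 34 of 42 (81%), against 54.3% of those 6618 genes and 49.2% of all genes tested. As the list was chosen with earlier results of these data known, these shares describe it and are no test of it. Their summed level was 4669 to 4709 CPM in the 3 producing libraries and 4419 to 4459 CPM in the 3 negative libraries.

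These were small differences. Log2 fold changes ran from -0.42 to 0.31, with standard errors of 0.0168 to 0.0554. When the test asked for a change beyond 1.2-fold, edgeR called 0 of the 42 higher (1 at an unadjusted p under 0.05) and 1 lower, against 2.44% and 5.46% of all genes. In 21 of the 42 genes every producing library lay above every negative library, and in 2 every producing library lay below. Over all genes these shares were 21.7% and 23.5%. Of the 6618 genes within the members' range of CPM, 2271 lay above and 1743 below in this way. With library size in place of TMM factors, 10 of the 42 were called higher and 3 lower, their median was 0.05 and that of all genes was -0.03. That scaling also moved the share of higher calls among all changed genes to 36.8% of 6000, against 47.8% of 5943 with TMM.

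**Figure D1:**
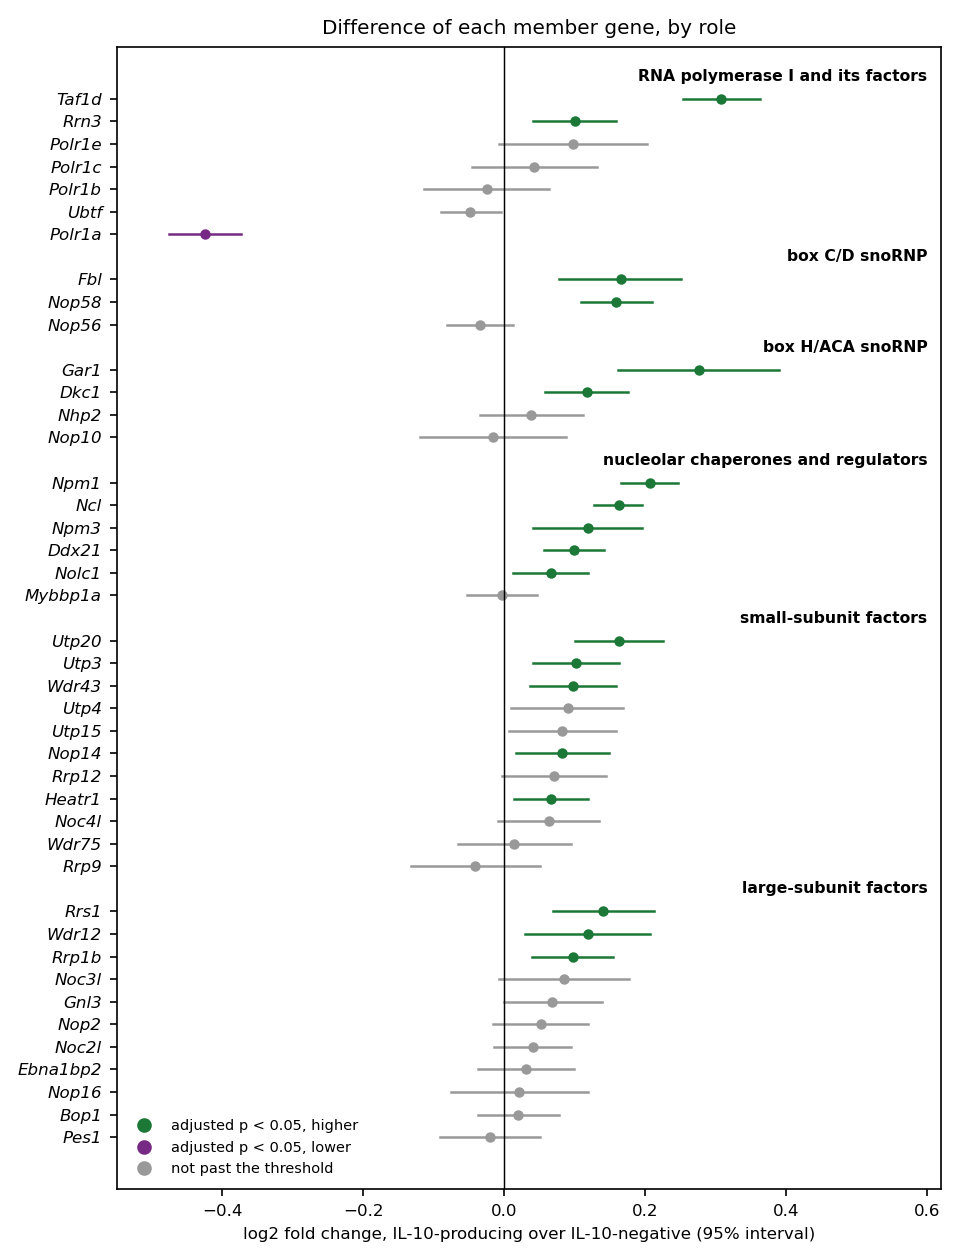
Log2 fold change (IL-10-producing over IL-10-negative) of each of the 42 genes, in 6 role groups, with bars for the 95% interval of the fit; green marks genes called higher, purple the gene called lower, and grey those not past the threshold. Polr1a, at -0.42, stands far from the rest, while Taf1d at 0.31 and Gar1 at 0.28 lie highest.

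Start regions are shown for 4 of the genes: Polr1a, which fell, Taf1d and Gar1, which had the highest fold changes, and Ncl, which had the most counts. RefSeq gave a promoter window on GRCm38.p6, from 250 bases before to 50 bases after the start, for 37 of the 42 genes; 5 had none. Windows were searched on both strands for the E-box CACGTG bound by Myc with Max, the ETS motif CCGGAAG or CTTCCGG, the CCAAT box (CCAAT or ATTGG) and the GC box (GGGCGG or CCGCCC), and overlapping matches were all kept. Printed 5′ to 3′ on the gene's own strand, up to 150 bases end just before the RefSeq start, and capitals mark matches to any of these motifs:
Polr1a (chr6:71908903-71909052, plus strand): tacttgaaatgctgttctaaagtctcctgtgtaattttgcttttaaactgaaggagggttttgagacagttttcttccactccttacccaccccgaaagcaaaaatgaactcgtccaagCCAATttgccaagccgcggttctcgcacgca
Taf1d (chr9:15306168-15306213, plus strand): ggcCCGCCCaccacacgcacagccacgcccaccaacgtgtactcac
Gar1 (chr3:129831397-129831546, minus strand): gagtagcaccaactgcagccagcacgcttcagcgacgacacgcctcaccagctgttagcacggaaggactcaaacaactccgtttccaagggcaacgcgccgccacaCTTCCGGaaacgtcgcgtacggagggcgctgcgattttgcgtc
Ncl (chr1:86359456-86359573, minus strand): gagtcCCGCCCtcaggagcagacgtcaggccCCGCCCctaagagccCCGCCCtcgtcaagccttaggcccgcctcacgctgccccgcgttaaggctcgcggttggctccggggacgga
Within these stretches Polr1a held a CCAAT box and no GC box, Taf1d a GC box, Gar1 an ETS motif and Ncl a run of GC boxes. Over the whole windows the GC box was found in 78.4% of the 37 genes and 68.8% of the 9692 tested genes with a window, the ETS motif in 35.1% and 19.8%, and the CCAAT box in 29.7% and 42.6%.

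The E-box was found in 7 of the 37 windows (18.9%) and in 11.8% of the windows of all tested genes. It did not separate the genes by their call: 3 of 16 called higher with a window (18.8%) and 4 of 21 not called higher (19%) held it. The sites are given with their flanks, because this is the motif most often named for the pathway; capitals mark the E-box:
Rrn3 (chr16:13780472-13780501, plus strand): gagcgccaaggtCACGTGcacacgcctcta
Rrn3 (chr16:13780639-13780668, plus strand): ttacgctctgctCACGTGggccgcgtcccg
Nop2 (chr6:125131811-125131840, plus strand): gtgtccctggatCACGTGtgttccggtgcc
Utp20 (chr10:88826765-88826794, minus strand): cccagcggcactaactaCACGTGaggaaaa
Wdr43 (chr17:71616220-71616249, plus strand): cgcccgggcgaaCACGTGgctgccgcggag
Mybbp1a (chr11:72441347-72441376, plus strand): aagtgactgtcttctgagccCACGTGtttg
Utp4 (chr8:106893643-106893672, plus strand): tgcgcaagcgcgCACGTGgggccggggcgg
Pes1 (chr11:3963965-3963994, plus strand): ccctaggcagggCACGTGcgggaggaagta
Rrn3 held a pair of E-boxes, at -215 and -48 from its start, and Nop2 held one at -60. In Pes1, Utp4, Wdr43, Utp20 and Mybbp1a the match began at or after the start, between positions 3 and 41. A match is a run of letters and says nothing of binding in these cells.

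RNA polymerase I and its factors went in both directions. Polr1a encodes the largest catalytic subunit of the polymerase (chromosome 6, 71909053 to 71984935, plus strand, mm10; 39 exons after merging). Its level was 128, 133 and 133 CPM in the producing libraries, against 175, 173 and 181 CPM in the negative libraries. The groups did not overlap: Polr1a fell by 25.4% (log2 fold change -0.42, SE 0.0247, edgeR adjusted p = 5.45e-13), and it also passed the test beyond 1.2-fold (edgeR adjusted p = 2.52e-06). Polr1b, whose product pairs with it in the catalytic core, was at 31.9, 31.0 and 33.8 CPM in producing and 32.6, 32.9 and 32.7 CPM in negative libraries, and the groups overlapped (log2 fold change -0.03, 95% interval -0.11 to 0.06, edgeR adjusted p = 0.707). The ratio of Polr1a to Polr1b within a library was therefore 4.01, 4.29 and 3.93 in producing and 5.36, 5.25 and 5.54 in negative libraries. An exact two-sided permutation test of this ratio gave p = 0.1, the smallest that 3 against 3 allows (0.15 after adjustment over the 3 ratios examined, all chosen after the values were seen). Polr1c, a subunit shared with RNA polymerase III, and Polr1e, a subunit particular to RNA polymerase I, had log2 fold changes of 0.04 (-0.05 to 0.13) and 0.10 (-0.01 to 0.20), neither past the threshold.

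The initiation factors differed among themselves. Taf1d, a subunit of the promoter selectivity factor SL1 (chromosome 9, 15306214 to 15316991, plus strand), was at 116, 119 and 114 CPM in producing and 93.7, 95.3 and 92.9 CPM in negative libraries. It was 23.8% higher, the widest rise among the 42 genes (log2 fold change 0.31, SE 0.0264, edgeR adjusted p = 6.99e-10), and it also had the highest level per length of its role group, at 101 CPM per kb in producing and 81.85 CPM per kb in negative cells. Of its 50-base words, 21.3% also occur in the gene Gm13487, so part of its count is uncertain. Rrn3, which ties the polymerase to SL1 at the rDNA promoter, was at 80.2, 80.5 and 79.1 CPM in producing and 74.6, 73.9 and 75.2 CPM in negative libraries, a rise of 7.15% (edgeR adjusted p = 0.00693). That call did not hold with library size alone (adjusted p = 0.0569). Ubtf, the rDNA-binding architectural factor, was at 235, 231 and 231 CPM in producing and 241, 237 and 242 CPM in negative libraries; every producing library lay below, but the difference did not pass the threshold (log2 fold change -0.05, SE 0.0205, edgeR adjusted p = 0.0735). The summed level of the 7 genes was 649 to 651 CPM in producing and 669 to 678 CPM in negative libraries.

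**Figure D2:**
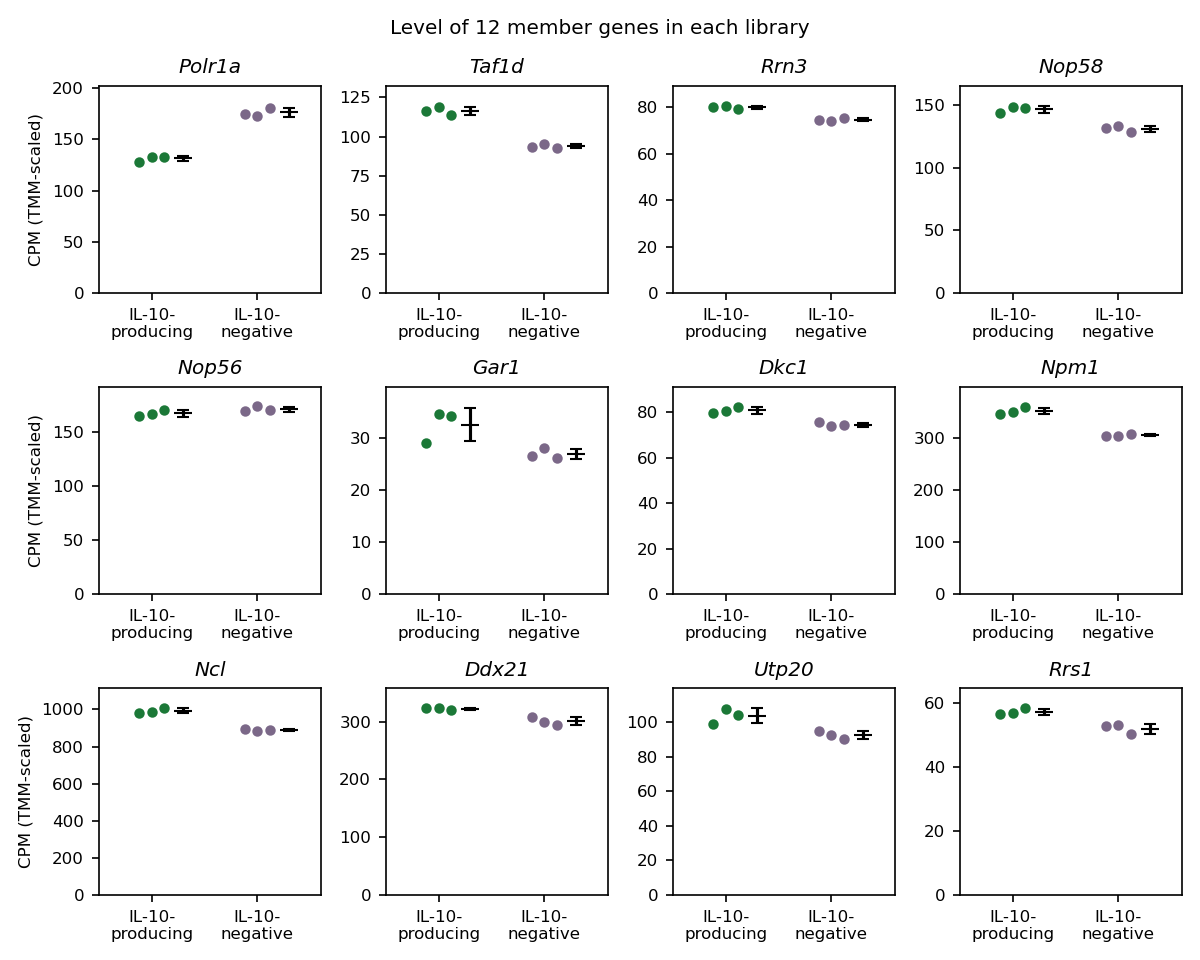
TMM-scaled CPM of 12 of the 42 genes in each library (1 point per library; black marks show mean and SD, n = 3 per population), IL-10-producing in green on the left and IL-10-negative in purple on the right, each axis starting at 0. Of these 12, Polr1a lies lower in the producing libraries without overlap; Nop56 overlaps, and the other 10 genes lie higher.

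Of the 3 box C/D snoRNP proteins, Fbl and Nop58 were called higher and Nop56 was not called. Fbl, the ribose methyltransferase fibrillarin, was at 38.5, 42.0 and 39.3 CPM in producing and 36.4, 35.9 and 34.8 CPM in negative libraries, and Nop58, a scaffold protein, at 144, 149 and 148 CPM and 132, 133 and 129 CPM. Both rose, without overlap between the groups (Fbl by 12.1%, edgeR adjusted p = 0.00298; Nop58 by 11.7%, edgeR adjusted p = 9.3e-06). Nop56, the paralogous scaffold that sits beside Nop58 in the particle, was the most abundant of the 3 per length (89.1 CPM per kb in producing and 91.2 CPM per kb in negative cells) and was at 165, 166 and 171 CPM in producing and 169, 174 and 171 CPM in negative libraries, with overlap. Its log2 fold change was -0.03 (95% interval -0.08 to 0.01, edgeR adjusted p = 0.264), and with library size alone it was called lower (adjusted p = 0.0308). The ratio of Nop58 to Nop56 was 0.871, 0.894 and 0.865 in producing and 0.779, 0.768 and 0.755 in negative libraries, again without overlap (exact two-sided permutation p = 0.1, the smallest possible). Near-identical copies limit both Fbl and Nop56, since 70.4% of the 50-base words of Fbl and 37.6% of those of Nop56 occur in other annotated genes; Nop58 shares none.

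Among the box H/ACA proteins, Gar1 and Dkc1 rose. Gar1 (chromosome 3, 129824912 to 129831396, minus strand), a core protein needed for pseudouridylation, was at 28.9, 34.5 and 34.1 CPM in producing and 26.6, 28.0 and 26.1 CPM in negative libraries. The difference was 1.21-fold (log2 fold change 0.28, SE 0.0554, edgeR adjusted p = 0.000284), with the first producing library close to the negative ones. Dkc1, the pseudouridine synthase dyskerin, was at 79.7, 80.7 and 82.5 CPM in producing and 75.7, 73.9 and 74.3 CPM in negative libraries, a rise of 8.44% (edgeR adjusted p = 0.00215). The remaining core proteins did not pass the threshold. Nhp2, the most abundant of the group per length (51.3 CPM per kb in producing and 49.9 CPM per kb in negative cells), was at 54.9, 52.2 and 53.2 CPM in producing and 53.3, 52.2 and 50.5 CPM in negative libraries (log2 fold change 0.04, 95% interval -0.04 to 0.11), and Nop10 had a log2 fold change of -0.02 (-0.12 to 0.09). The ratio of Gar1 to Nhp2 overlapped between the groups (0.528, 0.662 and 0.641 in producing, 0.498, 0.536 and 0.517 in negative libraries; exact two-sided permutation p = 0.2).

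Of the 6 abundant nucleolar proteins, 5 (83.3%) were called higher, beside 45.2% of all 42 genes and 30.2% of genes in their range of CPM. This group had the smallest median standard error of the 6 role groups (0.0223), so smaller differences could pass the threshold. Its median log2 fold change was 0.11, beside 0.16 for the box C/D proteins. Npm1, the nucleolar chaperone nucleophosmin (chromosome 11, 33152287 to 33163206, minus strand), was at 348, 351 and 360 CPM in producing and 304, 305 and 308 CPM in negative libraries. It was 15.3% higher (log2 fold change 0.21, SE 0.0199, edgeR adjusted p = 5.75e-09). With the transcript lengths used here it had the highest level per length of all 42 genes, 216 CPM per kb in producing and 187 CPM per kb in negative cells. Ncl, the RNA-binding protein nucleolin (chromosome 1, 86344719 to 86359400, minus strand), was at 982, 989 and 1008 CPM in producing and 893, 882 and 888 CPM in negative libraries, 11.85% higher (log2 fold change 0.16, SE 0.0168, edgeR adjusted p = 2.16e-08). Neither pair of groups overlapped. Per length Ncl was at 121 CPM per kb in producing and 108 CPM per kb in negative cells. That value rests on a transcript of 8202 bases, and a shorter one would place Ncl higher, so its rank below Npm1 is uncertain. Ddx21, an RNA helicase of the nucleolus, rose by 7.09% (322 ± 2.00 CPM in producing and 301 ± 6.89 CPM in negative cells, edgeR adjusted p = 0.000404). Npm3, a relative of Npm1, and Nolc1, a snoRNP chaperone, had smaller or less certain rises (log2 fold change 0.12, edgeR adjusted p = 0.016, and 0.07, edgeR adjusted p = 0.046), and these calls held in 9 and 7 of the 15 alternatives. Mybbp1a, a nucleolar regulator of transcription, was level at 217 ± 6.86 CPM in producing and 218 ± 4.96 CPM in negative cells (log2 fold change 0.00, 95% interval -0.05 to 0.05). Near-identical copies make Npm1 and Npm3 uncertain, with 40.9% and 31.9% of their 50-base words found in other genes.

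Of the 11 small-subunit factors, 5 (45.5%) were called higher and 6 were not called, beside 17.1% called higher among all genes and 30.2% within the members' range of CPM. Utp20, a large scaffold protein of the processome, was at 99.2, 108 and 104 CPM in producing and 95.1, 92.6 and 90.5 CPM in negative libraries, 1.12-fold higher (log2 fold change 0.16, SE 0.0303, edgeR adjusted p = 0.000114). Utp3, the highest of the group per length (52.6 CPM per kb in producing and 49.1 CPM per kb in negative cells), was at 84.0, 88.4 and 84.8 CPM in producing and 81.5, 78.2 and 80.5 CPM in negative libraries (log2 fold change 0.10, SE 0.0296, edgeR adjusted p = 0.00891). Both sets of groups stayed apart, but the call for Utp3 was lost in 4 of 15 alternative settings, where its adjusted p reached 0.0682. Among the proteins of the early-binding subcomplex that is also linked to rDNA transcription, Wdr43 and Heatr1 rose (log2 fold change 0.10, edgeR adjusted p = 0.0104, and 0.07, edgeR adjusted p = 0.0445). Utp4, Utp15 and Wdr75 of the same subcomplex had log2 fold changes of 0.09 (95% interval 0.01 to 0.17), 0.08 (0.01 to 0.16) and 0.01 (-0.07 to 0.09) and edgeR adjusted p of 0.0726, 0.0896 and 0.819. Nop14, a processome protein, rose by 5.87% (edgeR adjusted p = 0.0452). Over the 15 alternatives the calls for Wdr43, Heatr1 and Nop14 held in 12, 7 and 5, and their adjusted p reached 0.0831, 0.294 and 0.225. Its partner Noc4l, the export and maturation factor Rrp12 and Rrp9, a protein of the processome's own snoRNP, were not called, at log2 fold changes of 0.06 (-0.01 to 0.13), 0.07 (0.00 to 0.14) and -0.04 (-0.13 to 0.05).

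Of the 11 large-subunit factors, 3 (27.3%) were called higher and 8 were not called. This share was near that of genes within the members' range of CPM (30.2%), beside 17.1% of all genes. Rrs1, an assembly factor of the early large-subunit particle, was at 56.5, 57.0 and 58.4 CPM in producing and 52.7, 53.0 and 50.2 CPM in negative libraries, 10.2% higher (log2 fold change 0.14, SE 0.0345, edgeR adjusted p = 0.00215). Rrp1b, a nucleolar protein of rRNA processing, was at 83.7, 84.7 and 83.1 CPM in producing and 79.4, 77.8 and 78.2 CPM in negative libraries, 6.92% higher (edgeR adjusted p = 0.00776; 0.0651 with library size alone). The groups of both genes stayed apart. In the complex of Pes1, Bop1 and Wdr12, Wdr12 rose by 8.59% (edgeR adjusted p = 0.0322; called in 9 of 15 alternatives), whereas Bop1 and Pes1 had log2 fold changes of 0.02 (95% interval -0.04 to 0.08) and -0.02 (-0.09 to 0.05). Pes1 shares 22% of its 50-base words with other genes. Noc2l, the highest of the group per length (41.6 CPM per kb in producing and 40.5 CPM per kb in negative cells), was at 119, 115 and 114 CPM in producing and 115, 112 and 111 CPM in negative libraries and did not pass the threshold (log2 fold change 0.04, -0.01 to 0.10). As 20.9% of its exonic bases are shared with Samd11 on the other strand, its count is uncertain. The remaining 5 genes, the assembly factors Noc3l, Nop16 and Ebna1bp2, the rRNA methyltransferase Nop2 and the nucleolar GTPase Gnl3, had log2 fold changes of 0.02 to 0.09, and none passed the threshold.

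**Figure D3:**
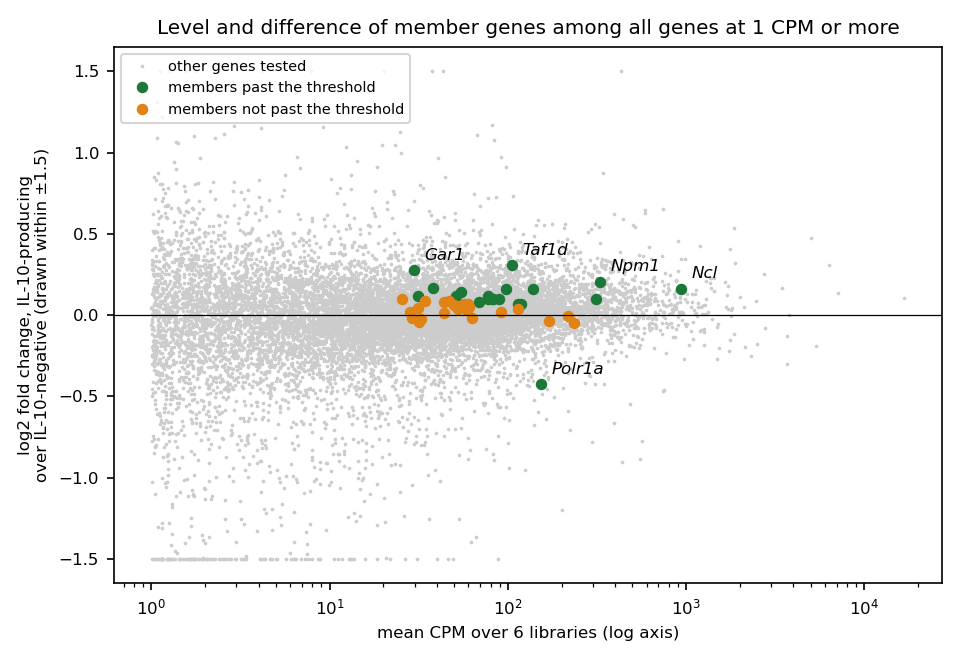
Log2 fold change (IL-10-producing over IL-10-negative) against mean CPM over the 6 libraries (log axis) for all genes tested at 1 CPM or more (grey), with the 42 genes in green where past the threshold and orange where not; values are drawn within ±1.5. The 42 genes lie between 25.6 and 940.4 CPM and mostly close to 0, 34 above it and 8 below, with Polr1a lowest at -0.42.

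Some of the genes also host snoRNAs, a feature that the choice by symbol did not use. In GENCODE M21, 7 of the 42 (16.7%) carry snoRNA genes within their bounds on the same strand, against 231 of 13544 protein-coding genes in the table (1.71%). Taf1d carries 8, Nop56 5, Nop58 4, Ncl, Wdr43 and Gnl3 3 each, and Dkc1 1. Of these hosts, Taf1d, Nop58, Ncl, Wdr43 and Dkc1 rose, and Nop56 and Gnl3 were not called. Of all 42 genes 45.2% were called higher, and of genes in their range of CPM 30.2%. Calls among other host genes were not compared, so a link between hosting and level was not tested. The reads of the snoRNAs themselves were not analysed here.

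Other genes of the pathway went in both directions. Over 5 further lists with 156 genes tested, 26 (16.7%) were called higher and 11 (7.05%) lower, beside 17.1% and 18.6% of all genes. Among genes within the members' range of CPM these shares were 30.2% and 22.7%, though some of the 156 genes lay below that range. The 156 genes had a median log2 fold change of 0.03. Of 55 other small-subunit factors, 8 were higher and 1 lower: Nop9, an RNA-binding processing factor, was at 81.2 ± 1.88 CPM in producing and 72.0 ± 0.424 CPM in negative cells (log2 fold change 0.17, edgeR adjusted p = 3.66e-05), Utp14b and Esf1 rose by 12.2% and 8.61%, and Rrp36 fell by 12.1% (edgeR adjusted p = 0.0087; 0.103 without producing library 2). Of 57 other large-subunit factors, 10 were higher and 4 lower. Rsl1d1, Urb2 and Zcchc4, the last an rRNA methyltransferase, had log2 fold changes of 0.13, 0.17 and 0.24, and Wdr74, Dhx30 and Sbds had log2 fold changes of -0.22, -0.12 and -0.12, all past the threshold. The median log2 fold changes of these 2 lists, 0.03 and 0.01, turned to 0.00 and -0.02 with library size alone, where the small-subunit list gave 3 higher and 5 lower and the large-subunit list 6 higher and 8 lower. Limma on the authors' normalized values called 3 of the small-subunit list higher.

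Of 20 other genes of RNA polymerase I and rDNA transcription tested, 3 (15%) were higher and 4 (20%) lower. These shares were close to those of all genes tested (17.1% and 18.6%). Among genes within the members' range of CPM, 30.2% were called higher and 22.7% lower, so the share called higher lay below that of such genes. Limma on the authors' normalized values called 2 higher and 1 lower. Smarca5, the ATPase of chromatin remodelling complexes, was at 219 ± 1.33 CPM in producing and 194 ± 4.35 CPM in negative cells (log2 fold change 0.17, edgeR adjusted p = 5.26e-07), Tcof1, the nucleolar phosphoprotein treacle, rose by 10.6%, and Polr2e, a subunit shared by the nuclear RNA polymerases, by 7.42%, a call lost in 4 of 15 alternatives. Taf1c, another SL1 subunit, fell by 13.9% (19.6 ± 1.11 CPM in producing and 22.85 ± 1.05 CPM in negative cells, edgeR adjusted p = 0.00268), and Sirt7, a deacylase that promotes rDNA transcription, and Baz2a, of a complex that silences rDNA repeats, had log2 fold changes of -0.10 and -0.07, both past the threshold in edgeR and not in limma on the authors' values (adjusted p = 0.0612 and 0.149). Among 15 genes of the RNA exosome and its cofactors, 5 were higher and 2 lower, with Exosc3, Dis3 and Exosc8 among those higher (log2 fold changes 0.20, 0.19 and 0.14) and Exosc4 and Zcchc7 lower (log2 fold changes -0.27 and -0.26). With library size alone the exosome list gave 3 higher and 4 lower. Among 9 snoRNP assembly genes edgeR called 0, also at an unadjusted p under 0.05, and the DESeq2 Wald test and limma-voom called 0. Of 13 non-coding snoRNA host RNAs tested, Snhg4 rose by 26.5% (edgeR adjusted p = 0.00184) and Snhg20 fell by 18.3% (edgeR adjusted p = 0.0102).

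**Figure D4:**
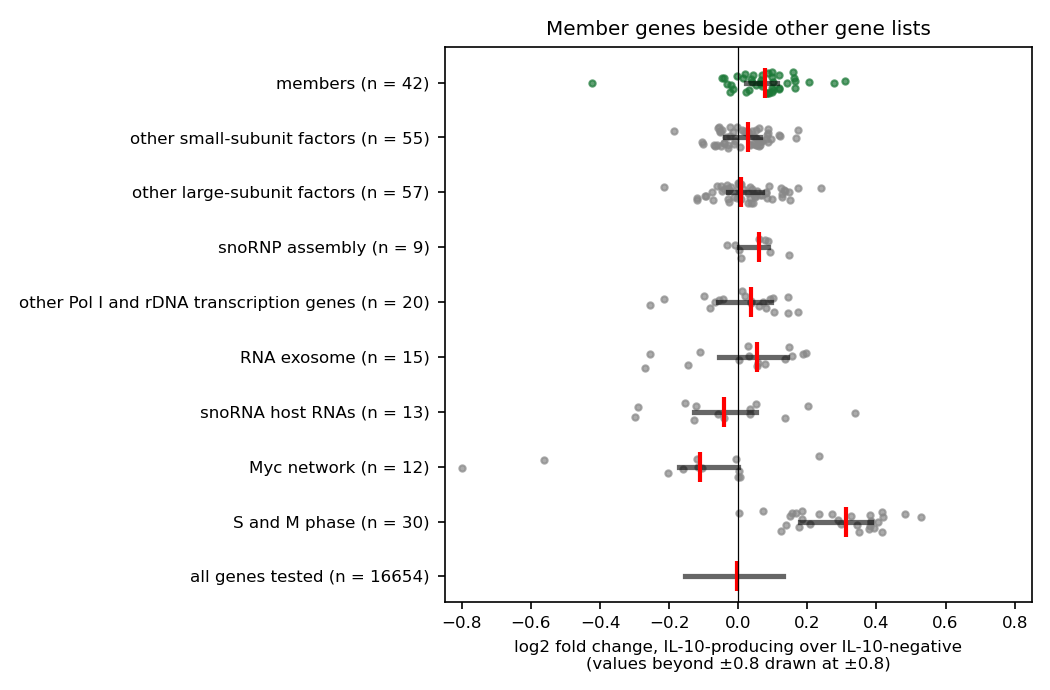
Log2 fold change (IL-10-producing over IL-10-negative) of each gene in 9 lists (points), with the median in red and the middle part of the values between their quartiles as a dark bar; the lowest row gives the same for all 16654 genes tested, and values beyond ±0.8 are drawn at ±0.8. The 42 genes (green, top) have a median of 0.08 beside 0.00 for all genes and 0.31 for the S and M phase list.

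Myc itself did not differ detectably: it was at 69.9, 69.2 and 65.6 CPM in producing and 67.9, 69.2 and 67.9 CPM in negative libraries (log2 fold change 0.00, 95% interval -0.07 to 0.06, edgeR adjusted p = 0.984). Of the 12 genes of its network, 1 was higher and 6 lower, and limma on the authors' normalized values called 1 higher and 3 lower. Mxd3 rose by 17.5%, whereas Mxd4, which like Mxd3 encodes a Max-binding antagonist of Myc, was at 81.4, 79.2 and 75.1 CPM in producing and 112, 118 and 118 CPM in negative libraries and fell by 32.3% (edgeR adjusted p = 1.62e-13). Mycn, a paralogue of Myc, was at 0.512 ± 0.0284 CPM in producing and 4.46 ± 0.435 CPM in negative cells (log2 fold change -3.11, edgeR adjusted p = 2.01e-13), and Mlxip fell by 7.93%.

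Genes of S phase and mitosis were higher in the producing cells. Of 30 tested, 28 were called higher, with a median log2 fold change of 0.31 and a summed level of 8924 to 8983 CPM in producing and 7196 to 7266 CPM in negative libraries. Mki67, a marker of cycling cells, was at 2008, 1981 and 2038 CPM in producing and 1516, 1509 and 1526 CPM in negative libraries, and Rrm2 and Ccna2 had log2 fold changes of 0.42 and 0.38. These levels moved in the same direction as 19 of the 42 genes and opposite to Polr1a, and their part in the differences of the 42 genes was not tested.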

How the data were processed

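The submitters' processing notes name STAR 2.5.3a, bcl2fastq 2.17.1.14, Partek and the genome build mm10; the annotation release and whether counting used strand were not given in the sources used here. The authors deposited estimated counts per gene without normalization between libraries (50.4% of values not whole) and, for 13824 genes, normalized signal values. All of these deposited signal values (100%, within 1%) were proportional, within each library, to the estimated count with 1 added. Positions come from the deposited table, and GENCODE M21 holds the identifiers of all 42 genes, 38 of them in the same version.

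Here, estimated counts were rounded and fitted with edgeR 4.0.16 (R 4.3.3; quasi-likelihood F test, TMM, filterByExpr with minimum count 10 and total 15, group as the only term), with Benjamini-Hochberg adjustment over 16654 genes. The steps were tested on simulated data. Alternatives used DESeq2 1.42.0 and limma 3.58.1. Levels per kb use the principal GENCODE transcript, 95% intervals are unadjusted, and shared 50-base words were searched in annotated transcripts. Pairs of libraries within a population differed by 2.39 to 2.96 times the Poisson expectation, so all 6 were used.

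The 42 genes and the other lists were chosen with earlier results of these data known. Values in every library were given for the called genes with the 2 smallest p in each role group, every gene that fell and the gene with the highest level per kb; from other lists, up to 3 called genes with the smallest p in each direction; Myc and Il10 always. The ratios and a few further values were chosen after the values were seen.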

Additional observations from a re-analysis of the deposited data

How the results depend on the processing

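Of the 19 genes called higher, 10 (Taf1d, Fbl, Nop58, Dkc1, Gar1, Ncl, Npm1, Ddx21, Utp20 and Rrs1) stayed called in all 15 alternatives other than the test beyond 1.2-fold, and Polr1a stayed lower in these and in that test. All 19 kept a log2 fold change above 0 in these 15. With library size alone, 10 of the 42 were higher and 3 lower (Ubtf and Nop56 added) and the median was 0.045. Beyond 1.2-fold, 407 genes were higher and 910 lower, of the 42 genes 0 and 1. Correcting for GC content and transcript length gave 20 higher and 1 lower with a median of 0.089. Leaving out 1 library at a time gave 15 to 18 higher and 1 lower of the 42, a median of 0.07 to 0.08, and 2478 to 2696 genes higher and 2739 to 2823 lower over all. Heatr1 lost its call without producing library 1 or 2 or negative library 1 or 3, Nolc1 without producing 1 or 2 or negative 1 or 2, Nop14 without producing 1 or 3 or negative 1 or 3, Npm3 without producing 1 or 3 or negative 2, Wdr12 without producing 1 or 3 or negative 2 or 3, Utp3 without producing 2 or negative 2, and Wdr43 without negative 1; over all 15 alternatives their highest adjusted p were 0.294, 0.301, 0.225, 0.103, 0.119, 0.0682 and 0.0831. Of the other lists, those of RNA polymerase I gave 5 higher without producing library 2 or negative library 1 and 2 lower without producing library 3 or negative library 1; the small-subunit factors gave 5 higher without producing library 1, 4 higher without negative library 2, 2 lower without producing library 3 and 3 lower without negative library 3; the large-subunit factors gave 6 higher and the exosome 3 higher without negative library 1. The replicate numbers did not pair the libraries (correlation of deviations of same-numbered libraries -0.02, -0.02 and -0.04), and the replicate block gave 16 higher and 1 lower, without Heatr1, Nolc1 and Nop14. The cause of these shifts was not tested. Each of the 42 genes had at least 1213 counts in every library.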

Other observations

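The subunits of the rDNA promoter factor SL1, set side by side after their values were seen, did not share a direction. Taf1d was higher in the producing cells, at 116 ± 2.64 CPM against 94.0 ± 1.26 CPM in negative cells. Taf1a was at 5.33, 6.55 and 6.99 CPM in producing and 7.72, 7.37 and 7.43 CPM in negative libraries (log2 fold change -0.26, SE 0.0948, edgeR adjusted p = 0.0381), a call that held in 9 of 15 alternatives (adjusted p up to 0.257; 0.0813 with limma on the authors' normalized values). Taf1c was lower as well, at 19.6 ± 1.11 CPM against 22.85 ± 1.05 CPM, and stayed called in all 15 (adjusted p up to 0.0263). Taf1b was at 20.9 ± 0.433 CPM in producing and 21.5 ± 1.43 CPM in negative cells (log2 fold change -0.04, 95% interval -0.16 to 0.07), and Tbp, which SL1 shares with other promoter complexes, at 32.3 ± 0.596 and 30.7 ± 0.548 CPM (log2 fold change 0.07, -0.01 to 0.16); neither passed the threshold.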
